A study of Homo sapiens with 16 samples.

Results

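IL4 is read by a short chain of proteins, and the transcripts of 10 of them were followed here: the receptor chains IL4R, IL2RG and IL13RA1, the kinases JAK1, JAK2, JAK3 and TYK2, the transcription factor STAT6, the adaptor IRS2 and the phosphatase PTPN6. They were chosen as the rows of the deposited count files that carry these gene symbols, and all 10 were found among the 62714 genes listed, 39680 of them with any count at all. The question was whether each pool of cells holds the parts needed to sense IL4, and whether the levels of these parts differ with CREBBP targeting.

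RNA was sequenced from 4 established human B-cell lymphoma lines, each transduced with a lentiviral CRISPR vector and 4 guides against either CREBBP, which encodes a histone acetyltransferase that acts as a transcriptional coactivator, or AAVS, a control integration site. The targeted cells were kept as pools and not as clones, so a pool can hold cells in which the cut left the gene intact. Every pool gave 1 library after 4 h with IL4 at 10 ng/ml and 1 library without it, from 50 ng of RNA. The 16 libraries thus form 2 untreated groups (AAVS baseline and CREBBP baseline) and 2 treated groups (AAVS IL4 and CREBBP IL4), each with 1 library from every line. Every group therefore carries Cas9, guides and lentivirus, the controls included. SU-DHL4 is line 1 here, and DOHH2 is line 4. Lines 2 and 3 are OCI-LY7 and SU-DHL10, but the labels contradict each other on which is which, so they are called by number.

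IL4 binds IL4R, which then pairs with IL2RG, the common gamma chain, in lymphocytes, or with IL13RA1 in many other cell types. JAK1 sits on IL4R, JAK3 on IL2RG, and TYK2 or JAK2 on IL13RA1. The kinases phosphorylate the receptor tail, STAT6 docks there, is phosphorylated in turn and enters the nucleus, while IRS2 couples the same receptor to PI3 kinase and PTPN6 (SHP-1) removes phosphates from receptors and kinases. Phosphorylation cannot be read from RNA, so what follows is about how much of each transcript was present.

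Total counts ran from 19649735 to 61981976 per library, with a median of 44724334. Levels are given as CPM, the count of a gene scaled to the total count of its library, unless stated otherwise. All 7 B-cell markers reached 1 CPM in every library, and so did 6 of 7 germinal centre markers. The 4 AAVS IL4 libraries stood apart from the other 12. The summed level of 7 genes that mark B cells outside the germinal centre was 546 to 3833 CPM in them and 11.7 to 58.8 CPM in the other 12 libraries. IGHM, the heavy chain gene of IgM, was at 138 to 1711 CPM in them and at most 0.0696 CPM elsewhere. IGHD, the heavy chain gene of IgD, was at 6.98 to 126 CPM in them and at 0 in the other 12 libraries of the same lines, and the T-cell gene CD2 was at 0.566 to 7.68 CPM against 0. Of the 21932 genes tested over all 16 libraries, 4.4% were higher in each AAVS IL4 library than in any other library. This held for 5 of the 7 genes of B cells outside the germinal centre. It held for 10 of 13 T-cell markers, with a summed level of 45.6 to 270.2 CPM against 11.2 to 121 CPM. For myeloid cells this held for 2 of 10 markers (7.60 to 26.0 against 1.07 to 13.6 CPM), for fibroblasts and stroma for 1 of 7 (1.03 to 17.6 against 0.124 to 34.0 CPM), and for the B-cell and germinal centre lists for 0 of 7 each. No marker of these 6 lists was at 0 in all 4 AAVS IL4 libraries. The deviations of each library from its group mean were also compared, over 9082 genes, with those of the lines in the other 3 groups. The libraries labelled AAVS IL4 of lines 1, 2 and 4 were most like their own line, with mean correlations of 0.65, 0.66 and 0.68, but that of line 3 had -0.0089 with its own line and at most 0.029 with any line. Whether these 4 libraries are the samples that their labels name could not be settled from the files. Each value given below for AAVS IL4, and each direction drawn from it, is that of the libraries so labelled. The part these marker transcripts have in those results was not tested, and in such bulk RNA a different share of cells and a different amount of RNA per cell cannot be told apart.

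**Figure D1:**
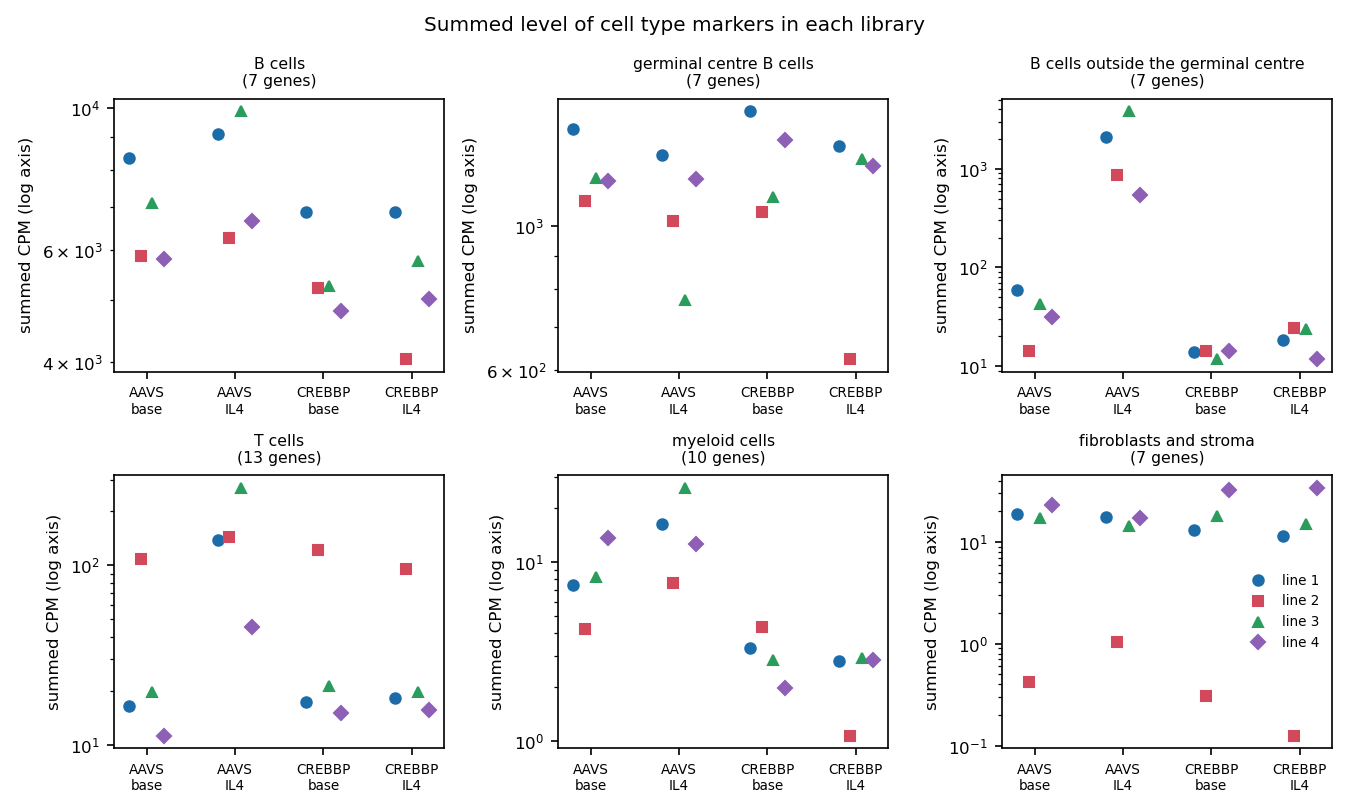
Summed CPM of 6 lists of cell type markers (log axes) in the 16 libraries, by group, with 1 symbol per line and no error bars because each point is 1 library. The 4 AAVS IL4 libraries are the highest for B cells outside the germinal centre (546 to 3833 CPM), while germinal centre genes lie at 624 to 1499 CPM over all 16 libraries.

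CREBBP itself was at 205 to 360 CPM in the AAVS baseline libraries and at 187 to 278 CPM in the CREBBP baseline libraries. Its log2 fold change of -0.11 ± 0.21 (SE) had an adjusted p of 0.851 (edgeR's quasi-likelihood test). With IL4 it was at 315, 190, 315 and 379 CPM in the AAVS pools of lines 1 to 4. The CREBBP pools then had 214, 69.9, 245 and 218 CPM. Small edits need not lower a transcript, so these levels do not check the targeting. The authors report loss of the CREBBP protein in the targeted pools by immunoblotting, which RNA cannot show.

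All 10 genes are protein coding. On GRCh38, IL4R lies on chromosome 16 from 27313668 to 27364778, IL2RG on chromosome X from 71107404 to 71112108 and IL13RA1 on chromosome X from 118727133 to 118794535. JAK1 lies on chromosome 1 (64833223 to 65067754), JAK2 on chromosome 9 (4984390 to 5129948), and JAK3 (17824780 to 17848071) and TYK2 (10350533 to 10380608) both on chromosome 19. STAT6 lies on chromosome 12 from 57095408 to 57132139, IRS2 on chromosome 13 from 109752695 to 109786583 and PTPN6 on chromosome 12 from 6946468 to 6961316. NAB2, on the opposite strand, overlaps STAT6 and was at 9.23 to 44.3 CPM. LRP1, on the same opposite strand, overlaps it as well and was at 0 to 25.0 CPM. The strand setting of the counting is not given for the lines in the sources used here, so some counts of these genes may be shared with STAT6. A readthrough gene on the strand of IL2RG, ENSG00000285171, was at 0.0928 to 4.89 CPM.

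The DNA in front of 1 transcription start each is shown for 3 members, because they carry the contrasts described below. IL4R is the receptor chain that was highest with IL4 in the AAVS pools. JAK3 is the kinase whose level set line 2 apart, and PTPN6 had the smallest unadjusted p between the pools at baseline. Each sequence is the 250 bases before a RefSeq transcription start (GRCh38.p14), written 5′ to 3′ on the strand of the gene, with GC boxes (GGGCGG or its complement CCGCCC) in capitals.
IL4R (chr16:27313724-27313973, plus strand): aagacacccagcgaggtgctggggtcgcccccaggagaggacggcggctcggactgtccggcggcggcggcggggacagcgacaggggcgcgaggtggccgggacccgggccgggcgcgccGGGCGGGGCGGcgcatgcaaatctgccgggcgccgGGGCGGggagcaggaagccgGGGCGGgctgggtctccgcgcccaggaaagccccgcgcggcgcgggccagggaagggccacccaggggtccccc
JAK3 (chr19:17847983-17848232, minus strand): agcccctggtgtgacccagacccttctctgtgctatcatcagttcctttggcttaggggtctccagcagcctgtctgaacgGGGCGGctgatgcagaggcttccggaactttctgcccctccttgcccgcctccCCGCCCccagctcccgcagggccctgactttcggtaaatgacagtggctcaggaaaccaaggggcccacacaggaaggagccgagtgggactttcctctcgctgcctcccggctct
PTPN6 (chr12:6951106-6951355, plus strand): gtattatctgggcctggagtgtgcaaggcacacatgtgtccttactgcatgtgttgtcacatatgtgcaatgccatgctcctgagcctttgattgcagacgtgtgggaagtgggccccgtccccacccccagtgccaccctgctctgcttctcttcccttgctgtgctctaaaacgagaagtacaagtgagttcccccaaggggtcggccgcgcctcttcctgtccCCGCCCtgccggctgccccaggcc
These starts need not be the outermost ones. The IL4R and PTPN6 stretches lie wholly inside the gene bounds given above, and that of JAK3 lies partly inside. The IL4R stretch holds 4 GC boxes, that of JAK3 holds 2 and that of PTPN6 holds 1. A further start of PTPN6, with a window from 6946327 to 6946626, has 2 GC boxes and is not printed. Over windows of 250 bases before and 50 bases after the start, GC made up 79.3% of the bases for IL4R, 63.7% for JAK3 and 61.7% for this start of PTPN6, with a median of 58.7% over all 35116 windows. The 10 genes have 16 such windows, all members matched. GC boxes were found in 9 of the 16, beside 45.0% of all windows. TTC and GAA with 4 bases between them, the spacing preferred by STAT6, were in 0 of the 16 and in 6.44% of all windows. With 3 bases between them, the spacing of other STATs, they were in 0 of the 16 and in 7.66% of all windows. These motifs read the same on both strands and do not overlap with the GC box. Their absence says only that the letters are not in these windows.

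**Figure D2:**
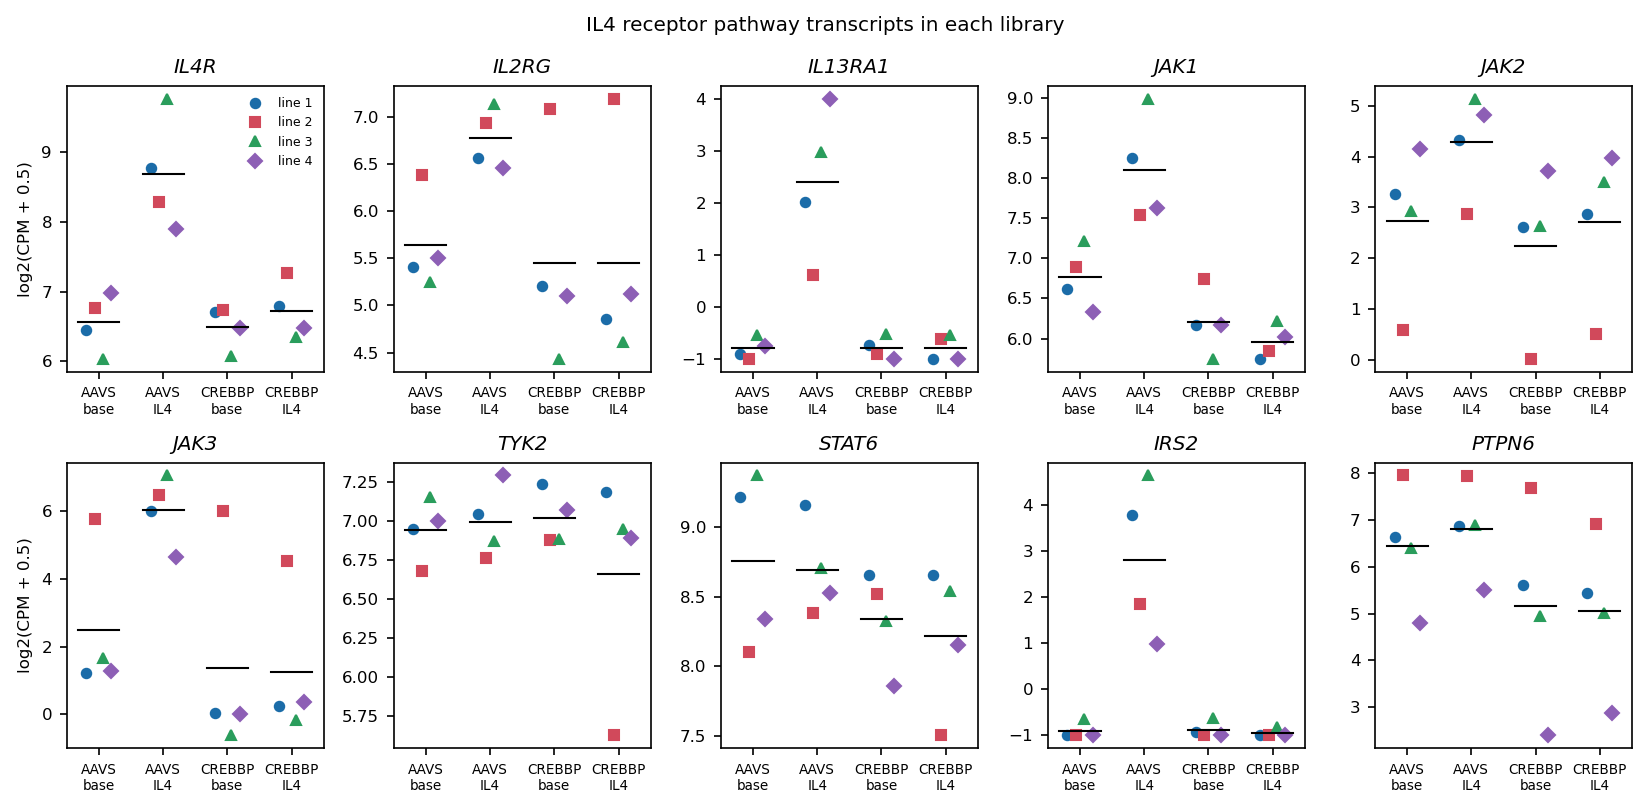
Level of the 10 transcripts as log2(CPM + 0.5) in the 16 libraries, by group, with 1 symbol per line and a bar at the mean of the 4 lines. IL4R, IL13RA1, JAK1 and IRS2 are higher in each AAVS IL4 library than in any of the other 12, while TYK2 and STAT6 show overlapping groups.

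At rest, the control pools held transcripts of IL4R, IL2RG, JAK1 and STAT6 in all 4 lines, whereas JAK3, the kinase of the IL2RG chain, was at 1.82 to 2.67 CPM in 3 lines and at 53.9 CPM in line 2. Per kilobase of the MANE Select transcript, STAT6 had the highest mean level of the 10 in the AAVS baseline libraries, at 117 ± 48.9 CPM per kb (SD, n = 4). PTPN6 followed at 53.0 ± 43.4, IL2RG at 35.0 ± 14.2, TYK2 at 29.1 ± 3.89, IL4R at 26.6 ± 7.32 and JAK1 at 21.8 ± 5.72 CPM per kb. The spreads of these neighbours overlap, from PTPN6 down to JAK1, so their order is not resolved. JAK3 at 2.80 ± 4.81 and JAK2 at 1.23 ± 0.955 CPM per kb came next, with overlapping spreads. IL13RA1, at 0.0198 ± 0.0202, and IRS2, at 0.00440 ± 0.00881 CPM per kb, were near the limit of detection. The STAT6 range of 69.2 to 167 CPM per kb lay above that of every member but PTPN6, whose highest library reached 114 CPM per kb.

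IL4R, the chain that binds IL4, was present in every pool. In the AAVS baseline libraries it stood at 86.6, 108, 65.1 and 126 CPM in lines 1 to 4. With IL4, the AAVS pools had 437, 313, 870.5 and 239 CPM, 1.89 to 13.4 times the baseline of their line. The groups did not overlap, with all 4 lines higher and line 3 the highest. The log2 fold change was 2.06 ± 0.43 (SE) with an adjusted p of 0.0715 in edgeR's quasi-likelihood test, so that IL4R missed the threshold of 0.05.

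In the CREBBP pools IL4R did not pass the test with IL4. Baseline libraries had 104, 106, 67.2 and 88.4 CPM and IL4 libraries had 110.4, 153, 81.2 and 89.0 CPM in lines 1 to 4. The groups overlapped, and the log2 fold change was 0.27 ± 0.20 (SE, adjusted p = 0.924). By CPM each line was higher with IL4, by 1.01 to 1.44 times, but after TMM scaling only lines 1 and 2 were, at 1.08 and 2.02 times, and lines 3 and 4 were at 0.995 and 0.984 times. Line 2 thus gave the largest ratio on either scale.

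IL4R did not separate the pools without IL4. The baseline ratio of CREBBP to AAVS was 1.20, 0.98, 1.03 and 0.70 in lines 1 to 4, with a log2 fold change of 0.04 ± 0.20 (SE, adjusted p = 0.950). With IL4 the ratio was 0.25, 0.49, 0.093 and 0.37, and the groups did not overlap by CPM. TMM factors of 0.673 for the CREBBP IL4 library of line 2 and 1.07 for the AAVS IL4 library raised every ratio between them by 1.59 times. On that scale the ratio of IL4R in line 2 was 0.78, and the groups overlapped, with a highest CREBBP value of 228 and a lowest AAVS value of 212. That log2 fold change was -1.68 ± 0.46 (SE, adjusted p = 0.0805), and the difference in IL4 response between the pools was also -1.68, ± 0.49 (SE, adjusted p = 0.174).

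IL2RG, the partner chain shared by several interleukin receptors, was likewise present in every library. Untreated AAVS pools had 41.8, 83.0, 37.6 and 44.9 CPM in lines 1 to 4, and treated ones had 93.7, 122, 140.1 and 87.2 CPM. All 4 lines were higher and the groups did not overlap, with a log2 fold change of 1.08 ± 0.21 (SE, adjusted p = 0.0594). In the CREBBP pools the values were 36.4, 135, 21.1 and 33.8 CPM without IL4, and 28.6, 145, 24.0 and 34.3 CPM after it. Line 2 was the highest in both CREBBP groups, the groups overlapped, and the log2 fold change was 0.04 ± 0.18 (SE, adjusted p = 0.981). Between pools IL2RG differed by -0.09 ± 0.24 at baseline (adjusted p = 0.902) and by -1.11 ± 0.52 with IL4 (adjusted p = 0.224) on the log2 scale. In line 2 the CREBBP pool was above the AAVS pool in both conditions, 1.62 and 1.19 times (the latter 1.89 times after TMM scaling), whereas it was below in the other lines.

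IL13RA1, which forms the second type of IL4 receptor and also binds IL13, was barely detected outside the AAVS IL4 libraries. Those 4 libraries had 91, 35, 144 and 737 counts, or 3.55, 1.03, 7.33 and 15.4 CPM. None of the other 12 libraries had more than 9 counts, and 4 had none. Since a count of 0 allows up to 3 counts, the level in such a library can be up to 0.0736 CPM at the depth of AAVS baseline line 2. There the IL4 library was at least 14.0 times higher, and in the remaining AAVS lines the ratios were 99.6 (95% exact interval 26.8 to 835), 39.7 (20.3 to 88.5) and 162 (69.0 to 499.8) for lines 1, 3 and 4. These intervals cover counting error only. The fitted log2 fold change was 6.34 ± 0.63 (SE, adjusted p = 0.00865), a value that depends on the prior count for a gene this low. IL13RA1 passed the filter on low counts only through the AAVS IL4 group, so this p is no support for a rise. In both CREBBP groups it was at 0 to 0.194 CPM, and the gene was not tested there or between pools at baseline because it failed the filter on low counts. Against the CREBBP IL4 libraries the log2 difference was -6.00 ± 1.51 (SE, adjusted p = 0.0676).

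JAK1, the kinase bound to IL4R, rose with IL4 in the AAVS pools and was lower in the CREBBP pools with IL4. It was at 97.5, 118, 147 and 79.7 CPM in the AAVS baseline libraries and at 302, 186, 505 and 197 CPM in the AAVS IL4 libraries of lines 1 to 4. The groups did not overlap, and the rise of 1.57 to 3.43 times gave a log2 fold change of 1.28 ± 0.21 (SE, adjusted p = 0.0340). In the CREBBP pools it was at 71.2, 107, 53.3 and 71.8 CPM without IL4, and at 53.4, 57.2, 74.0 and 64.5 CPM after treatment. Only line 3 was higher with IL4 there, by 1.39 times, and the log2 fold change was -0.20 ± 0.16 (SE, adjusted p = 0.924). With IL4, JAK1 was lower in the CREBBP than in the AAVS pools of all 4 lines, at 0.18, 0.31, 0.15 and 0.33 times by CPM, with 0.49 times in line 2 after TMM scaling. This difference passed the test with a log2 value of -1.87 ± 0.32 (SE, adjusted p = 0.0281), as did the difference in IL4 response, -1.38 ± 0.27 (SE, adjusted p = 0.0470). Without IL4 the CREBBP pools were also below the AAVS pools in all 4 lines, at 0.36 to 0.90 times, but the log2 fold change of -0.45 ± 0.23 (SE) had an adjusted p of 0.452. The response difference lost its call with total counts as the only scaling (adjusted p = 0.072) and with all 16 libraries in 1 fit (adjusted p = 0.0832). JAK1 also lost that call without line 1, without line 3 and without the block by line. The call between the pools with IL4 was lost without line 1, line 3 or line 4. The call for IL4 in the AAVS pools was lost without line 1 and with at least 10 counts in every library.

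JAK3, the kinase bound to IL2RG, split the lines. In the AAVS baseline libraries it was at 1.82, 53.9, 2.67 and 1.93 CPM in lines 1 to 4, with line 2 far above the others. AAVS IL4 libraries had 64.4, 88.7, 133 and 24.3 CPM, with ratios of 35.4, 1.64, 49.7 and 12.6 to the baseline of the line. The groups overlapped only through line 2, and the log2 fold change of 3.85 ± 0.86 (SE) had an adjusted p of 0.0851. Without line 2 the log2 value was 4.70 with an adjusted p of 0.0031, in a fit that called 4.93% of all genes, beside 2.4% with all 4 lines.

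Outside line 2, JAK3 was lowest in the CREBBP pools. At baseline they had 0.529, 63.9, 0.151 and 0.509 CPM, and with IL4 0.675, 22.4, 0.394 and 0.791 CPM, in lines 1 to 4. IL4 did not separate these groups, with a log2 fold change of 0.03 ± 0.33 (SE, adjusted p = 0.995) and line 2 alone lower, at 0.35 times. Against the AAVS pools at baseline, lines 1, 3 and 4 were at 0.29, 0.057 and 0.26 times and line 2 at 1.18 times, with a log2 fold change of -1.57 ± 0.52 (SE, adjusted p = 0.298). With IL4 the CREBBP pools were at 0.010, 0.25, 0.0030 and 0.032 times the AAVS pools. The groups did not overlap by CPM but did through line 2 after TMM scaling, and the log2 difference of -5.31 ± 1.18 (SE) had an adjusted p of 0.0524. Line 2 also had the highest level of the T-cell list outside the AAVS IL4 libraries, 95.9 to 121 CPM against 11.2 to 21.2 CPM in the other lines, and whether this bears on its JAK3 level was not tested.

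JAK2, which serves many cytokine receptors, was a low transcript with line 2 as the lowest. The AAVS baseline libraries had 9.12, 1.01, 7.08 and 17.2 CPM, and the AAVS IL4 libraries had 19.7, 6.81, 34.6 and 27.6 CPM. All 4 lines were higher with IL4, by 1.60 to 6.77 times, in overlapping groups, with a log2 fold change of 1.62 ± 0.40 (SE, adjusted p = 0.117). The CREBBP baseline libraries had 5.62, 0.514, 5.72 and 12.6 CPM, and the CREBBP IL4 libraries had 6.79, 0.919, 10.7 and 15.2 CPM. Here too all 4 lines were higher, by 1.20 to 1.88 times by CPM and 1.17 to 2.50 times after TMM scaling. The log2 fold change of 0.55 ± 0.23 (SE) had an unadjusted p of 0.0438 and an adjusted p of 0.924. CREBBP pools were below AAVS pools in all 4 lines both at baseline, by a log2 value of -0.48 ± 0.26 (SE, adjusted p = 0.478), and with IL4, by -1.45 ± 0.32 (SE, adjusted p = 0.0510).

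TYK2, the remaining kinase of the family, was not called in any comparison and its groups overlapped throughout. It was at 123, 102, 142 and 128 CPM in AAVS baseline, 132, 108, 117 and 156 CPM in AAVS IL4, and 151, 117, 118 and 134 CPM in CREBBP baseline libraries of lines 1 to 4. CREBBP IL4 libraries had 145, 48.9, 123 and 118 CPM. Line 2 of that group was the lowest of the 16, with a TMM factor of 0.784 beside 0.992 to 1.17 in the other CREBBP IL4 libraries, which means that CPM understates its typical gene. After TMM scaling its ratio to baseline was 0.58 instead of 0.42. The 4 log2 fold changes of TYK2 lay between -0.31 ± 0.17 (SE, IL4 in the CREBBP pools, adjusted p = 0.924) and 0.18 ± 0.18 (SE, CREBBP against AAVS at baseline, adjusted p = 0.715).

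STAT6, the transcription factor that carries the signal to the nucleus, was the most abundant of the 10 per kilobase in the baseline groups and was not called in any comparison. In lines 1 to 4 it was at 595, 274, 663 and 323 CPM in the untreated AAVS pools, and at 572, 334, 416 and 369 CPM in the treated ones. Lines 2 and 4 were higher with IL4 and lines 1 and 3 were lower, with a log2 fold change of -0.12 ± 0.26 (SE, adjusted p = 0.824). The untreated CREBBP pools had 403, 366, 320.4 and 232 CPM, the treated ones had 403, 181, 373 and 285 CPM, and IL4 gave a log2 fold change of -0.08 ± 0.19 (SE, adjusted p = 0.959). STAT6 in the CREBBP pools was at 0.68, 1.33, 0.48 and 0.72 times the AAVS pools at baseline, a log2 fold change of -0.32 ± 0.24 (SE, adjusted p = 0.603). With IL4 these ratios were 0.70, 0.54, 0.90 and 0.77 by CPM, with lines 2 and 3 at 0.86 and 1.05 times after TMM scaling, for a log2 fold change of -0.20 ± 0.23 (SE, adjusted p = 0.598). No library fell below 180.7 CPM, so the transcript was present in all 16.

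IRS2, the adaptor that links the receptor to PI3 kinase, was detected almost only in the AAVS IL4 libraries. They had 343, 105, 482 and 71 counts, or 13.4, 3.09, 24.5 and 1.49 CPM. In the other 12 libraries it had at most 7 counts and 8 of them had none. In lines 1, 2 and 4 the AAVS IL4 level was at least 250.2, 42.1 and 26.0 times that of the AAVS baseline library, which had no count, and in line 3 it was 171 times (95% exact interval 82.2 to 427). The fitted log2 fold changes of 8.39 ± 0.82 for IL4 in the AAVS pools (SE, adjusted p = 0.00796) and -9.04 ± 0.77 for CREBBP against AAVS with IL4 (SE, adjusted p = 0.00537) passed the test, and both depend on the prior count. So did the difference in IL4 response, -9.74 ± 1.54 (SE, adjusted p = 0.0350). IRS2 was too low to be tested for IL4 in the CREBBP pools or for CREBBP against AAVS at baseline. Both IRS2 and IL13RA1 passed the filter only through the AAVS IL4 group and had to be high there to be tested at all, so these p-values are given as a description.

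PTPN6, the phosphatase that dampens signalling from this and other receptors, was lower in the CREBBP pool of every line, without passing the test. Untreated AAVS pools had 99.2, 247, 84.0 and 27.5 CPM in lines 1 to 4, and untreated CREBBP pools had 48.5, 207, 30.5 and 4.78 CPM. All 4 CREBBP pools were lower, at 0.49, 0.84, 0.36 and 0.17 times, although the groups overlapped because the lines differed widely. The log2 fold change of -1.20 ± 0.32 (SE) had an unadjusted p of 0.00302 and an adjusted p of 0.224. With IL4 the values were 117, 244, 118 and 44.6 CPM in the AAVS pools and 43.2, 120.7, 31.9 and 6.84 CPM in the CREBBP pools, at 0.37, 0.49, 0.27 and 0.15 times by CPM, with 0.78 times in line 2 after TMM scaling. That log2 fold change was -1.48 ± 0.38 (SE, adjusted p = 0.0707). IL4 itself left PTPN6 within the spread in both kinds of pool, with log2 fold changes of 0.29 ± 0.18 in the AAVS pools (SE, adjusted p = 0.454) and -0.05 ± 0.17 in the CREBBP pools (SE, adjusted p = 0.972). Without line 2, which was the highest in all 4 groups, the baseline difference passed the test with a log2 value of -1.53 and an adjusted p of 0.0192. That fit called 2.68% of all genes, beside 0% with all 4 lines. With line 1, 3 or 4 left out instead, PTPN6 was not called.

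**Figure D3:**
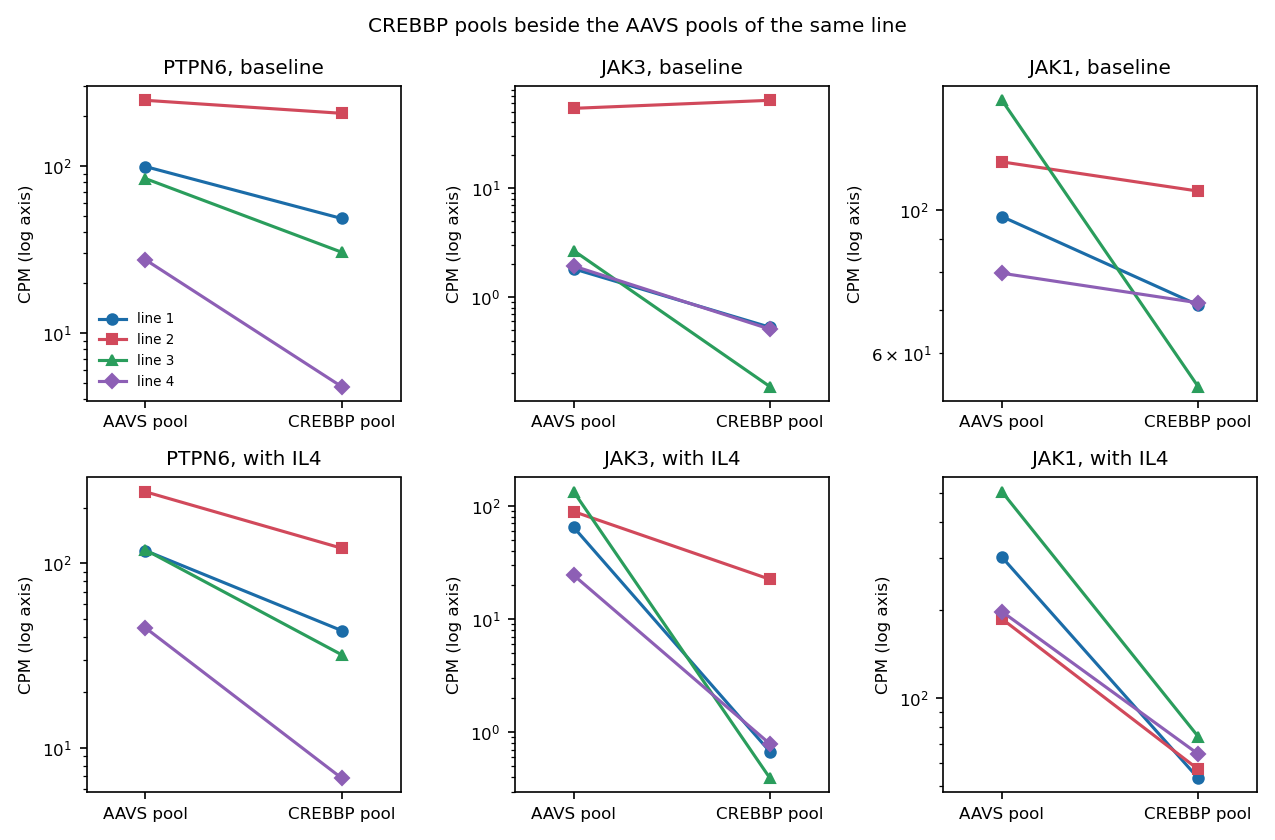
Level of PTPN6, JAK3 and JAK1 (CPM, log axes) in the AAVS pool and the CREBBP pool of the same line, at baseline in the upper row and with IL4 in the lower row, with 1 line drawn per cell line. PTPN6 slopes down in all 4 lines in both conditions, JAK3 slopes down in 3 lines at baseline and in 4 with IL4, and JAK1 slopes down most steeply with IL4.

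Counted over the members, IL4 in the AAVS pools gave 3 of 10 calls, all higher: IL13RA1, JAK1 and IRS2. Among the 20310 genes tested, 2.4% were called and 2.39% were called higher. IL13RA1 and IRS2 had to be high with IL4 to be tested, which leaves JAK1 as 1 call among the other 8 members. Non-overlapping higher groups were seen for 5 of the 10 (IL4R, IL2RG, IL13RA1, JAK1 and IRS2), beside 6.34% of all genes tested, and for 3 of those 8. The median log2 fold change was 1.45 over the 10 members and 1.18 over the 8, against 0.01 over all genes. DESeq2 called 7 of the 10, adding IL4R, IL2RG, JAK2 and JAK3, and the test without any filter on low counts called the same 7. The share of all genes called went up as well, to 10.2% with DESeq2 and 4.85% with no filter. Leaving out line 1 left only IRS2 called, with 0.31% of all genes, and with at least 10 counts in every library none of the 8 members that remained was called, with 0.174% of all genes.

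IL4 in the CREBBP pools gave 0 calls among the 8 members tested, as it did among the 18282 genes (0%). At an unadjusted p under 0.05 there was 1 member, JAK2, beside 2.75% of all genes, and DESeq2 called 0 members. The median log2 fold change of the 8 members was -0.01, and that of all genes was -0.04. This comparison uses no AAVS IL4 library.

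CREBBP against AAVS at baseline, which also uses none of them, gave 0 calls among 8 members and 0% of 18936 genes. Unadjusted p-values under 0.05 were found for 2 members, PTPN6 and JAK3, both lower, beside 12.8% of all genes in either direction. DESeq2 called PTPN6, and the test with no filter on low counts called PTPN6 and JAK3, beside 2.71% and 1.63% of all genes under these settings. JAK1, JAK2 and PTPN6 were lower in 4 of 4 lines, beside 14.9% of all genes tested. The median over the 8 members was -0.39 on the log2 scale, with -0.03 over all genes.

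With IL4, CREBBP against AAVS gave 2 of 10 calls, JAK1 and IRS2, both lower, beside 4.39% of 19581 genes called and 3.42% called lower. IRS2 had to be high in AAVS IL4 to be tested, so that JAK1 is the call among the other 8 members. By CPM, IL4R, IL13RA1, JAK1, JAK3 and IRS2 did not overlap between the groups, 5 of 10 beside 12.9% of all genes, and after TMM scaling IL13RA1, JAK1 and IRS2 alone did not. The median log2 difference was -1.58 over the 10 members and -1.46 over the 8, and that of all genes was -0.05. With total counts as the only scaling the median of all genes moved to -0.33, the calls over all genes went from 189 higher and 670 lower to 56 higher and 1275 lower, and 7 of the 10 members were called, all lower. Leaving out line 3 left no member called, with 0.124% of all genes called. Leaving out line 1 or line 4 left IRS2 alone, with 0.524% and 1.63% of all genes, and leaving out line 2 gave 8 calls, with 12.4% of all genes.

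For the difference in IL4 response, JAK1 and IRS2 were called, 2 of 10, and 0.638% of 21932 genes were. Here too IRS2 was testable only through the AAVS IL4 group. All 4 AAVS IL4 libraries lay above all other 12 for IL4R, IL13RA1, JAK1 and IRS2, beside 4.4% of those genes. Leaving out line 1 or line 3, or taking the lines out of the model as a block, left 0 members called, with 0.0724%, 0.0815% and 0.00912% of all genes called. The IL4 and AAVS libraries of this model also enter the comparisons above, so these counts are not independent of them.

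**Figure D4:**
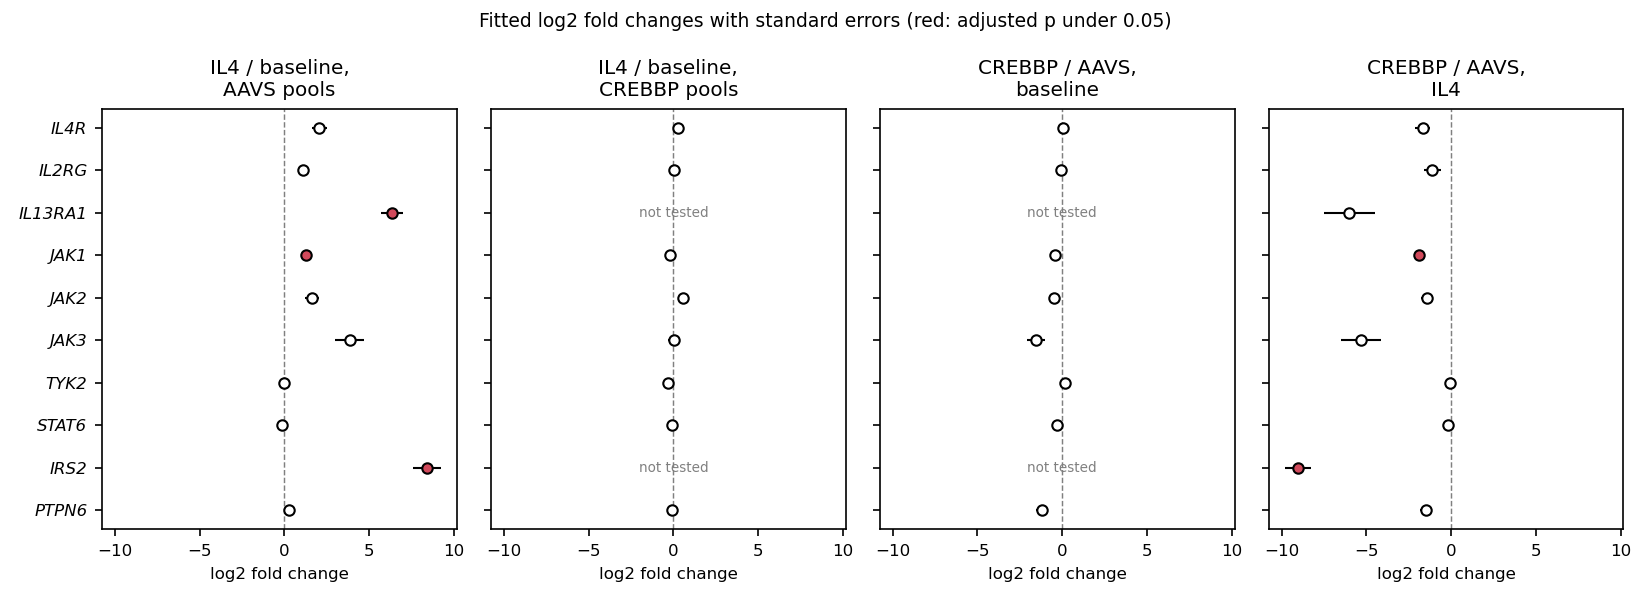
Fitted log2 fold change of each member in 4 comparisons, with the standard error as a bar and red symbols for an adjusted p under 0.05. Red symbols appear for IL13RA1, JAK1 and IRS2 with IL4 in the AAVS pools and for JAK1 and IRS2 between the pools with IL4, and members that failed the filter are marked as not tested.

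The wider pathway was described with 45 further genes in fixed roles. In the AAVS pools 8 of the 41 tested were called higher with IL4 and none lower, beside 2.39% of all genes called higher. Of these, the receptor chain IL15RA, the factor STAT4 and the feedback inhibitor SOCS3 passed the filter only through the AAVS IL4 group and had to be high there. Among the 36 genes that were also tested without that group, 5 rose: the receptor chains IL2RA and IL7R, the adaptor GAB2, the feedback inhibitor CISH, and the coactivator NCOA1, which binds STAT6. SOCS3 went from 0.107, 0, 0.287 and 0.0191 CPM to 49.5, 5.16, 143 and 16.2 CPM in lines 1 to 4. NCOA1 rose from 28.9, 11.5, 30.0 and 15.6 CPM to 71.6, 43.6, 98.9 and 47.8 CPM, a log2 fold change of 1.58 ± 0.20 (SE, adjusted p = 0.0170). STAT4, a factor of T cells and other lymphocytes, had at most 0.125 CPM in any of the other 12 libraries and from 2.00 to 23.6 CPM in AAVS IL4.

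In the CREBBP pools 0 of 35 pathway genes passed the test with IL4, and 0 of them had an unadjusted p under 0.05. The shares of all genes were 0% and 2.75%. The smallest p belonged to PIK3CD, a catalytic subunit of PI3 kinase, with a log2 fold change of -0.40 ± 0.19 (SE, adjusted p = 0.924). Between pools at baseline 0 of 35 passed, beside 0% of all genes. An unadjusted p under 0.05 was found for 3 of the 35, beside 12.8% of all genes, so these 3 do not stand out. They were PARP14, a STAT6 cofactor (-0.78 ± 0.25, adjusted p = 0.292), the receptor chain IL9R (-0.65 ± 0.27, adjusted p = 0.359) and the exchange factor SOS1 (-0.44 ± 0.19, adjusted p = 0.382), all log2 with SE. With IL4, 9 of 41 were lower in the CREBBP pools and none was higher, beside 3.42% of all genes called lower. IL2RB, IL15RA, STAT4 and SOCS3 were testable only through the AAVS IL4 group, and IL2RA, IL7R, STAT5A, GAB2 and NCOA1 are the 5 of the other 36. For the difference in response 1 of 42 passed, beside 0.638% of all genes, NCOA1, at -1.41 ± 0.26 (SE, adjusted p = 0.0411).

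Genes known to answer IL4 in B cells were taken as a readout. In the AAVS pools it rests on the libraries labelled AAVS IL4, which the marker transcripts set apart. The part of those transcripts in this readout was not tested. Of 7 tested in the AAVS pools, CISH, FCER2, NFIL3, MOB3C and QSOX1 rose, beside 2.39% of all genes called higher, while SOCS1 and IL4I1 did not pass. CCL17 was too low to be tested there. FCER2, the low-affinity IgE receptor CD23, went from 12.6, 6.79, 8.83 and 9.22 CPM to 105, 17.5, 212 and 40.1 CPM, a log2 fold change of 2.71 ± 0.49 (SE, adjusted p = 0.0475). In the CREBBP pools 0 of 7 passed, beside 0% of all genes. An unadjusted p under 0.05 was found for 1, beside 2.75% of all genes: MOB3C (log2 fold change 1.25 ± 0.50, SE, adjusted p = 0.924). The readout genes did not move together in these pools. In line 2, described after its values were seen, CISH, a feedback inhibitor, was at 0.206 CPM without and 3.83 CPM with IL4, and FCER2 at 7.26 and 21.3 CPM. MOB3C was higher with IL4 in lines 1, 2 and 3, by 4.03, 3.52 and 4.07 times after TMM scaling, and at 0.54 times in line 4. In line 2 SOCS1 was at 20.5 and 20.7 CPM, IL4I1 at 24.9 and 27.5 CPM, NFIL3 at 28.0 and 33.3 CPM, QSOX1 at 0.993 and 1.29 CPM, and CCL17 at 0 in both. In the other CREBBP pools CISH was at 0 to 0.328 CPM without and 0.0645 to 0.255 CPM with IL4. The same IL4 libraries held IL4R at 81.2 to 110.4 CPM, STAT6 at 285 to 403 CPM and JAK1 at 53.4 to 74.0 CPM. They held IL2RG at 24.0 to 34.3 CPM and JAK3 at 0.394 to 0.791 CPM, beside 145 and 22.4 CPM in line 2. Whether these levels bear on the readout genes was not tested. Line 2 is 1 library per condition, so its values have no replicate check.

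The genes that followed IL4R most closely, over 9081 genes with a mean of at least 10 CPM and with levels centred within each line, were BTN2A2 (Pearson r = 0.98), RGPD6 (r = 0.98) and MIR155HG (r = 0.97), over 16 libraries. Over the 12 libraries outside AAVS IL4 these values were 0.50, 0.55 and 0.59. RGPD6 belongs to a family of near-identical copies, and its counts are uncertain. For STAT6 they were BCL2L11 (r = 0.93), PLEKHG2 (r = 0.92) and LAPTM5 (r = 0.92), with 0.96, 0.95 and 0.96 over the 12. Among the members, IL4R and IRS2 had r = 0.97 over 16 libraries and -0.29 over the 12 libraries outside AAVS IL4, IL4R and JAK3 had r = 0.90 and -0.30, and IL4R and IL13RA1 had r = 0.85 and 0.70. JAK1 and JAK3 had 0.97 and 0.91, and JAK3 and STAT6 had 0.47 and 0.97. The libraries share lines and pools, so these values describe the 16 libraries and are not tests.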

How the data were processed

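Ribosomal RNA depleted RNA of the 4 lines was sequenced by the authors as paired reads of the 16 libraries. The submitters' processing notes name cutadapt 2.3, FastQC 0.11.8, STAR 2.7.8a, RSEM 1.3.3 and GRCh38. The authors deposited RSEM estimated counts, not normalized and already whole, so that none had to be rounded. The methods for the lines refer back to those for primary cells, where technical replicates were averaged. Whether the counts of the lines were averaged before deposit is not stated. A count that RSEM divides between overlapping genes or copies is an estimate and can move a low gene.

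From the counts, CPM was computed with the library total, and CPM per kb with the length of the GENCODE release 44 MANE Select transcript. Genes kept by filterByExpr were scaled by TMM factors and tested with the quasi-likelihood test of edgeR 4.0.16 (R 4.3.3) with the line as a block, fitted on all genes of the groups compared, with Benjamini-Hochberg adjustment across every gene tested. The standard error of a log2 fold change is its size divided by the square root of the F statistic. The difference in response came from a model of the 16 libraries in which each pool had its own term. Ratios within a line are ratios of CPM unless TMM is named.

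Libraries with the same line number come from the same cell line, which is why the number pairs them. As a check, their deviations from the group means had median correlations of 0.583, 0.720, 0.301 and 0.681 within lines 1 to 4, with a lowest value of -0.145 in line 3, so that the pairing there rests on the labels. No replicates were copies: chi-square per degree of freedom was 72.0 or more for the 24 pairs within groups. Each line gave 1 library per group and nothing was repeated within a line. With the line as a block, p-values rest on how much a difference between groups varies from line to line. The tests were also run on simulated data with 200 genes changed by known amounts, and the outcome is not reported here.

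All 10 members were described in each comparison. Pathway genes were described by counts and named where they passed the test or, failing that, among the 3 smallest p-values. The members, the gene lists and the rules were chosen with earlier results of these data known. Alternatives were DESeq2 size factors, no filter on low counts, at least 10 counts in every library, DESeq2 1.42.0, no block, each line left out, all 16 libraries in 1 fit and other pseudocounts. A fit with total counts only was added after seeing the data. Guide sequences and the primary cell samples were not used here.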

Additional observations from a re-analysis of the deposited data

Results flagged for a closer look

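The gap of 1 library to the other 3 of its group was large for 9 of the 40 sets of a member and a group. For independent, normally distributed values the rule flags about 1 in 20 sets. These sets are CPM of different lines, and the flags repeat the same genes and lines over several groups. An excess over that rate is therefore not shown. Line 2 stood high for JAK3, at 53.9 CPM in AAVS baseline, 63.9 CPM in CREBBP baseline and 22.4 CPM in CREBBP IL4. The same line stood high for IL2RG in those groups, at 83.0, 135 and 145 CPM. Line 3 stood high for IRS2 in them, at 0.144, 0.151 and 0.0696 CPM, values that rest on at most 7 counts.

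The test of the difference in IL4 response between CREBBP and AAVS pools called JAK1, with a log2 difference of -1.38 (adjusted p = 0.0470, edgeR, lower in 4 of 4 lines). It also gave -9.74 for IRS2 (adjusted p = 0.0350, lower in 4 of 4 lines), but IRS2 had at most 7 counts in each of the other 12 libraries and was testable only because it was high in AAVS IL4, so its p is no support for a difference. Both rest on the libraries labelled AAVS IL4, whose B-cell markers from outside the germinal centre summed to 546 to 3833 CPM.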

How the results depend on the processing

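How many of the 10 members were called depended on the setting in 4 of the 5 comparisons. The share of all genes called, given after each count, moved too. For IL4 in the AAVS pools (3 called, 2.4%) the count was 7 with no filter on low counts (4.85%), 7 with DESeq2 (10.2%), 6 with all 16 libraries in 1 fit (5.79%) and 0 with at least 10 counts in every library (0.174%), and 1 to 5 with a line left out (0.31% to 4.93%). For IL4 in the CREBBP pools it was 0 under each alternative (at most 0.117%). For CREBBP against AAVS at baseline (0 called, 0%) it was 2 with no filter (1.63%), 1 with DESeq2 (2.71%) and 0 to 1 with a line left out (0% to 2.68%). With IL4 (2 called, 4.39%) it was 7 with no filter (9.34%), with DESeq2 (21.2%), with all 16 libraries (4393 of 21932 genes) and with total counts only (6.8%), 4 with at least 10 counts (5.02%), and 0 to 8 with a line left out (0.124% to 12.4%). For the difference in response (2 called, 0.638%) it was 5 with no filter (3.0%) and with DESeq2 (5.02%), 1 with at least 10 counts (0.528%) and with all 16 libraries (0.702%), and 0 to 4 with a line left out (0.0724% to 1.19%). Without the replicate block by line, the counts in the order of these comparisons were 3, 0, 0, 2 and 0, so the block changed only the last. The cause of these shifts was not tested, and some settings also change the number of lines or genes.

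Directions turned only for members not called in that comparison with the processing described above. With no filter on low counts, JAK3 was called at baseline. Without the block, JAK3 turned to -0.97 for IL4 in the CREBBP pools and to 0.19 at baseline, and IL2RG to 0.18 at baseline. With all 16 libraries JAK3 with IL4 in the CREBBP pools was -0.16. With no filter IL4R at baseline was -0.0036, and with at least 10 counts the response difference of STAT6 was -0.023. Total counts only, which moved the median of all genes from 0.05 to -0.16 for the difference in response, gave 0.050 for TYK2 with IL4 in the AAVS pools, -0.0082 for IL2RG and -0.018 for JAK3 with IL4 in the CREBBP pools, -0.060 for IL4R at baseline and -0.061 for the response difference of STAT6. With a line left out, IL4 in the AAVS pools gave -0.12 to 0.089 for TYK2 and -0.30 to 0.071 for STAT6. IL4 in the CREBBP pools gave -0.14 to 0.18 for IL2RG, -0.17 to 0.67 for JAK3, -0.18 to 0.074 for STAT6 and -0.21 to 0.026 for PTPN6. At baseline the range was -0.039 to 0.21 for IL4R and -0.35 to 0.081 for IL2RG, with IL4 it was -0.17 to 0.15 for TYK2 between pools, and for the response difference -0.12 to 0.36 for STAT6. All values are log2 fold changes. With a pseudocount of 0.1 or 1 CPM in place of 0.5, 92 of 100 mean log2 CPM differences moved by less than the spread between lines, and the other 8 were of IL13RA1 and IRS2. In the 12 libraries outside AAVS IL4 both genes had at most 9 counts, which limits what could be detected of them there.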
